A study of Mus musculus with 48 samples.

Results

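Enteroendocrine cells are the scattered hormone-secreting cells of the gut epithelium, and G protein-coupled receptors (GPCRs) on their surface detect the products of fat, fibre and bile. The genes examined here were the 6 best-known receptors of this kind, Ffar1, Ffar2, Ffar3, Ffar4, Gpr119 and Gpbar1, taken by gene symbol from the 53465 genes of the count table. Each symbol matched 1 Ensembl gene, and all 6 genes were among the 15126 that passed a filter on low counts. The cells came from Neurod1-cre-eYFP mice, in which Cre expressed from the Neurod1 gene turns on a yellow fluorescent protein, so that cells with a history of Neurod1 expression can be sorted by flow cytometry. All mice were lean males on a C57BL6 background that carried this reporter and were about 20 weeks old before an operation. They ate chow apart from a liquid diet around the operation. At 6 weeks after it, mice of all groups were fasted overnight and given an oral glucose load of 3 g per kg. They were killed about 15 min after this load. The VSG mice alone were also given weekly vitamin B12. The 17 mice had either vertical sleeve gastrectomy (VSG, removal of most of the stomach, 6 mice), a sham operation with free feeding (sham ad libitum, 6 mice), or a sham operation with food limited to match the weight of the VSG mice (sham weight-matched, 5 mice). Sorted cells from the top 5 cm of the small intestine (duodenum), its bottom 15 cm (ileum) and the colon with the rectum gave 48 RNA-sequencing libraries, 16 per region, of which 6 were from VSG mice and 5 from each sham group, and 15 mice gave all 3 regions.

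As background, long-chain fatty acids released by lipase activate Ffar1 (also called GPR40) and Ffar4 (GPR120), and the short-chain fatty acids that bacteria make from fibre activate Ffar2 (GPR43) and Ffar3 (GPR41). Gpr119 responds to monoacylglycerols and oleoylethanolamide, and Gpbar1 (TGR5) to bile acids. Ffar1 acts mainly through Gq proteins and calcium, Gpr119 and Gpbar1 through Gs and cyclic AMP, Ffar3 through Gi, and Ffar2 through both Gq and Gi. These receptors are best known in the gut for driving release of GLP-1, PYY, GIP and CCK.

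Library totals ranged from 4648651 to 17182463 counts, with a median of 6713018. Levels are given in CPM, counts scaled to a common library size. The granin gene Chga, a marker of enteroendocrine cells, was abundant in each region, with means of 17265, 17997 and 21929 CPM in duodenum, ileum and colon, and no region lacked Neurod1. Other enteroendocrine genes were lower in colon: 9 of the 12 genes of the marker list fell against duodenum and 1 rose (Chga), with a median log2 difference of -1.65 for the list against -0.01 for all genes tested. Neurod1 itself averaged 660 ± 181 CPM (SD, n = 16) in duodenum, 412 ± 122 in ileum and 255 ± 65.1 in colon. Transcripts of other epithelial cells were present in all sorts. The summed level of 9 enterocyte markers ran from 5097 to 42692 CPM in duodenum, 4123 to 15681 in ileum and 373 to 894 in colon, and that of 7 colonocyte markers from 33.0 to 387 CPM, 56.7 to 460 CPM and 936 to 3537 CPM in the same order. In bulk RNA of this kind, fewer cells that carry a receptor and less receptor RNA per cell cannot be told apart.

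1 library stood apart. The duodenum library of sham weight-matched mouse 27 held 42692 CPM of the enterocyte markers, against 5097 to 13428 in the other 15 duodenum libraries, 2368 CPM of 17 immune markers against 26.9 to 745, and 3764 CPM of 6 Paneth markers against 122 to 795. Of the immune markers tested, Cd74 (294 CPM) and H2-Aa (60.4 CPM) had the highest duodenum means, while Ptprc, the gene of CD45, had 2.45 CPM. CD45-positive cells were excluded in the sort. The geometric mean of the library of mouse 27 over the 12 enteroendocrine markers was 200.2 CPM, against 573 to 839 in the others. Each of the 6 receptors was lower there than in all the other duodenum libraries, except Gpbar1, which was at 0 counts there and in 3 others. The receptors' differences from duodenum are therefore given with and without it, while the levels, the lists and the ratios to markers include it. 2 libraries of sham ad libitum mouse 12 carry description codes that are swapped relative to their tissue labels. They were kept by tissue label, and the colonocyte markers summed to 1581 CPM in the one labelled colon and 460 CPM in the one labelled ileum.

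The relative abundance of the 6 receptors was compared per kilobase of exon, since longer transcripts collect more reads. Length was the union of all annotated exons (4175 bases for Ffar1 and 2790 for Ffar2), and the orders and shares below depend on it. In CPM, without this scaling, Ffar1 was above Ffar2 in duodenum, with means of 85.1 and 63.8. In the duodenum Ffar2 stood at 22.9 ± 6.10 CPM per kb (SD, n = 16) and Ffar1 at 20.4 ± 5.14, together well above Ffar4 (8.91 ± 2.46), Gpr119 (5.93 ± 2.21), Ffar3 (2.55 ± 0.998) and Gpbar1 (0.616 ± 0.755). In the ileum the order was Ffar1 (26.2 ± 10.7 CPM per kb), Ffar2 (22.2 ± 5.84), Ffar4 (9.66 ± 2.62), Gpr119 (8.34 ± 3.9998), Gpbar1 (4.43 ± 3.03) and Ffar3 (2.59 ± 1.48). In the colon Ffar2 led with 15.4 ± 3.795 CPM per kb, followed by Ffar4 (9.39 ± 3.78), Gpr119 (4.24 ± 2.34), Ffar1 (3.96 ± 1.498), Gpbar1 (2.08 ± 1.70) and Ffar3 (0.620 ± 0.434). Ffar1 therefore supplied 33.3% of the summed receptor level of the duodenum, 35.7% of that of the ileum and 11.1% of that of the colon. Neighbours in these orders were not all separated. Ffar1 exceeded Ffar2 in 8 of 16 ileum libraries, and Gpr119 exceeded Ffar1 in 7 of 16 colon libraries. In the duodenum Ffar2 exceeded Ffar1 in 13 of 16 libraries, while Ffar1 exceeded Ffar4, Ffar4 exceeded Gpr119 and Gpr119 exceeded Ffar3 in 16 of 16.

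**Figure D1:**
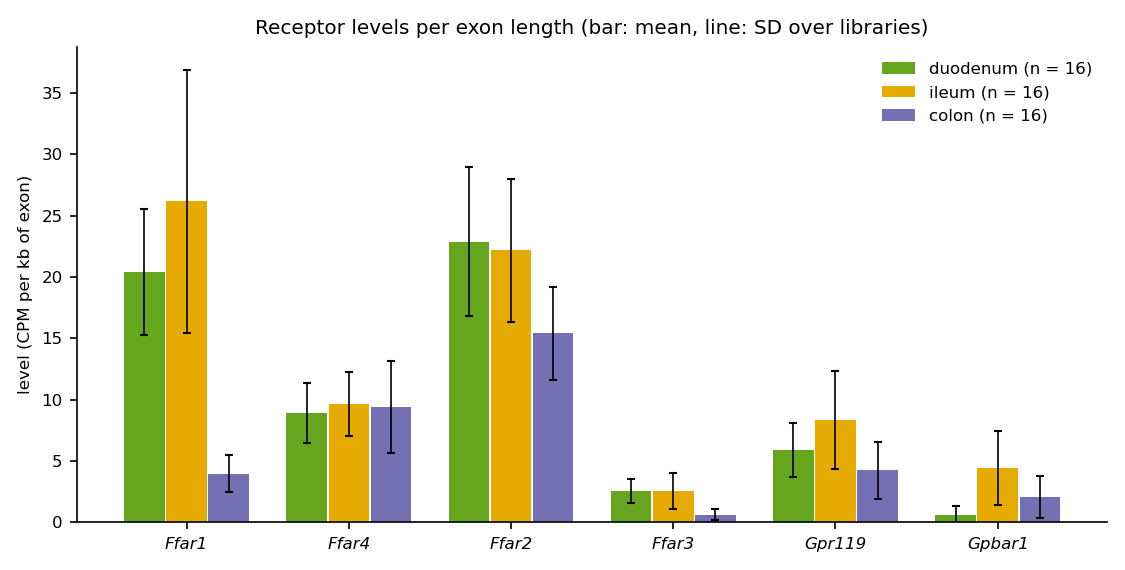
Level of each receptor in CPM per kilobase of exon (vertical axis) in duodenum, ileum and colon. Bars are means and lines SDs over 16 libraries. Ffar1 falls from 20.4 and 26.2 in the small intestine to 3.96 in the colon, Ffar4 is near 9 in every region, and Gpbar1 is highest in the ileum at 4.43.

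Between regions, edgeR's quasi-likelihood test with Benjamini-Hochberg adjustment over all genes called a gene at an adjusted p under 0.05. Of the 6 receptors, 1 (Gpbar1) was higher in ileum than in duodenum and none was lower, where 33.8% of all genes were called (17.2% higher and 16.6% lower). This fit has no mouse term, and fits that paired the libraries of a mouse also called Gpr119 higher there. 4 of 6 were called between colon and duodenum, 1 higher and 3 lower, where 55% of all genes were called (26.8% higher and 28.3% lower). 5 of 6 were called between colon and ileum, all lower, where 49.2% of all genes were called (23.8% higher and 25.4% lower). The counts of 4 and 5 of 6 are to be read against these high backgrounds. The 2 colon comparisons share the colon libraries, so their counts are not independent of each other.

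**Figure D2:**
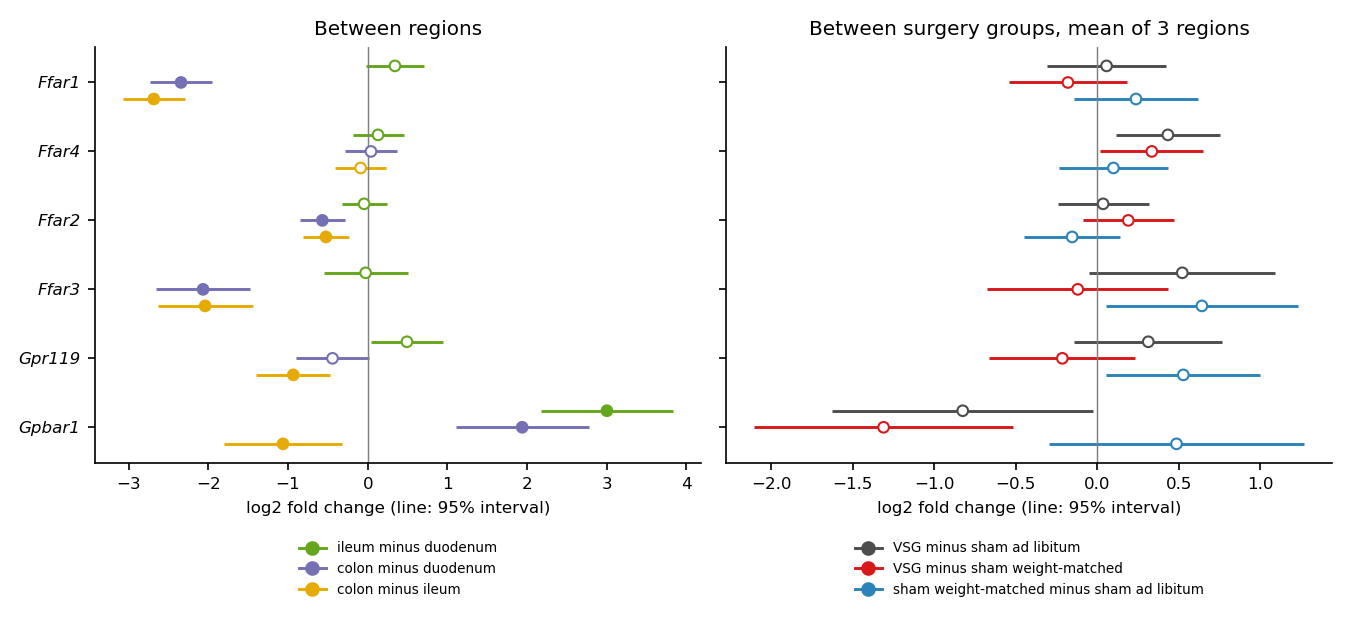
Log2 fold change of each receptor (horizontal axis, lines are 95% intervals) between regions (left) and between surgery groups averaged over regions (right). Filled points passed an adjusted p of 0.05 by edgeR and open points did not. The filled points are 10 of the 18 region comparisons, with Ffar1 and Ffar3 below -2 in both colon comparisons, and no point on the right is filled.

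Ffar1, the long-chain fatty acid receptor, was the member that differed most firmly between small and large intestine. The gene (ENSMUSG00000044453) lies on the minus strand of chromosome 7 at 30857390 to 30861564 (GRCm38), and its coding sequence sits within 1 exon. In the duodenum the sham ad libitum libraries held 72.9, 64.7, 91.4, 71.3 and 104 CPM, the sham weight-matched libraries 98.0, 75.6, 25.3, 110.2 and 102 CPM, and the VSG libraries a lowest, median and highest value of 74.8, 92.9 and 107 CPM. In the ileum the sham ad libitum libraries held 70.5, 60.9, 98.6, 80.2 and 111 CPM, the sham weight-matched libraries 101, 102, 91.4, 235 and 160.5 CPM, and the VSG libraries 58.0, 105 and 152 CPM. In the colon they held 21.4, 22.5, 17.01, 18.4 and 10.2 CPM, 12.4, 23.0, 5.18, 25.1 and 22.6 CPM, and 7.08, 14.4 and 21.2 CPM. No colon library (5.18 to 25.1 CPM) reached the lowest duodenum library (25.3 CPM, the one of mouse 27 that stood apart) or the lowest ileum library (58.0 CPM), and all 15 mice with 3 regions had their lowest Ffar1 in the colon. Ffar1 fell by 2.34 (SE 0.192) on the log2 scale from duodenum to colon, with an adjusted p of 3.0e-14 by edgeR, and by 2.69 (SE 0.194) from ileum to colon, with an adjusted p of 1.0e-15. Without the duodenum library of mouse 27, the colon-to-duodenum difference was -2.40. From duodenum to ileum the difference was 0.34 (SE 0.178, 95% interval -0.02 to 0.70, adjusted p = 0.139 by edgeR), or 0.27 without that library, with 10 of 15 mice higher in ileum.

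Ffar4, the other long-chain fatty acid receptor, held nearly the same level along the gut. The gene (ENSMUSG00000054200) has 3 coding exons on the plus strand of chromosome 19 at 38097071 to 38114263. Its lowest, median and highest levels were 4.62, 12.8 and 17.7 CPM in duodenum, 6.25, 13.1 and 20.7 CPM in ileum, and 6.12, 13.5 and 21.3 CPM in colon. The ranges of the 3 regions lie on top of each other. None of the 3 region differences passed by edgeR, and their 95% intervals on the log2 scale were -0.19 to 0.45 for ileum against duodenum, -0.28 to 0.36 for colon against duodenum and -0.41 to 0.23 for colon against ileum. The sign of the colon-to-duodenum difference (0.04) was not settled, being -0.01 without the duodenum library of mouse 27, which moved the ileum-to-duodenum difference from 0.13 to 0.06. The ratio of Ffar1 to Ffar4 counts, which does not depend on library scaling, had a median of 6.79 over the duodenum libraries, 7.84 over the ileum libraries and 1.37 over the colon libraries.

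Ffar2 and Ffar3, the short-chain fatty acid receptors, lie in the same cluster as Ffar1. The 3 genes are on the minus strand of chromosome 7 within 43217 bases, Ffar2 (ENSMUSG00000051314) at 30818348 to 30823775 and Ffar3 (ENSMUSG00000019429) at 30854330 to 30856178, with 1211 bases between Ffar3 and Ffar1 and no other annotated gene overlapping any of them. The sequences before their starts are shown because Ffar1 and Ffar3 are neighbours that both fell by over 2 on the log2 scale in the colon, whereas Ffar2 differed less. Each line gives, 5′ to 3′ on the gene's strand, the 150 bases before the outermost start given by RefSeq or GENCODE, from RefSeq's promoter windows on GRCm38.p6, at chr7:30861565-30861714 for Ffar1, chr7:30856179-30856328 for Ffar3 and chr7:30823776-30823925 for Ffar2, the first of 4 RefSeq starts. Capitals mark the letters TGACG and CGTCA of the cAMP response element half-site.
Ffar1: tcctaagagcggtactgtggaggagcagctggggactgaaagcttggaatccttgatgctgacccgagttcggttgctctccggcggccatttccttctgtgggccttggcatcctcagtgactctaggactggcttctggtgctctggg
Ffar3: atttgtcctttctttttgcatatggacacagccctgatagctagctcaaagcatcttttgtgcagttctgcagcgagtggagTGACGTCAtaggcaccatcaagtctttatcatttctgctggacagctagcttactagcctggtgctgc
Ffar2: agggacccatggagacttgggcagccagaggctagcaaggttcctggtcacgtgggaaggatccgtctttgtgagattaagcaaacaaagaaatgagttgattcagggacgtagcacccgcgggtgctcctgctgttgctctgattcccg
Both half-sites occur in the Ffar3 window, overlapping to form 1 run of letters from 68 to 61 bases before the start. The half-site occurs in 13.3% of the 32851 RefSeq windows, taken as the 150 bases before each RefSeq start, and the overlapping pair in 1.36%. For Ffar1, Ffar4 and Gpbar1 the window searched lies before the GENCODE start, which is farther out than the RefSeq start. Letters of 4 other factor families were searched on both strands as well. The GATA letters AGATAA are found in 5.65% of all windows. The CDX letters TTTATG are found in 6.33% of them, the NEUROD letters CAGATG in 8.81%, and the HNF4 letters CAAAGT in 7.04%. None of these is in the windows of the 6 receptors, nor are the cAMP half-sites in those of the other 5.

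Ffar2 was the more abundant of the short-chain receptors and fell modestly in the colon. Its lowest, median and highest levels were 19.2, 66.4 and 88.8 CPM in duodenum, 39.9, 59.8 and 96.9 CPM in ileum, and 24.8, 43.6 and 60.3 CPM in colon. The ranges overlapped, but 13 of 15 mice had less Ffar2 in colon than in duodenum and 11 of 15 less than in ileum. Ffar2 fell by 0.57 (SE 0.142, adjusted p = 0.000623 by edgeR) from duodenum to colon, by 0.63 without the duodenum library of mouse 27, and by 0.52 (SE 0.142, adjusted p = 0.00186 by edgeR) from ileum to colon. Between ileum and duodenum the difference was -0.05 (95% interval -0.33 to 0.24), or -0.12 without that library. Neither Ffar2 fall passed with the second library index, a sequencing barcode, as a covariate. That fit left the colon at 0.033 from the duodenum and -0.35 from the ileum. The index largely follows region, and most duodenum libraries carry an index found in no other region. That fit can therefore hardly separate index from region.

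Ffar3 was far scarcer than Ffar2 and, like Ffar1, fell in the colon against both other regions. Its counts were 15 to 70 in the duodenum libraries, 4 to 79 in the ileum libraries and 2 to 16 in the colon libraries, so that the colon values carry large counting error. In the duodenum the sham ad libitum libraries held 2.35, 3.84, 5.47, 3.13 and 4.32 CPM, the sham weight-matched libraries 4.44, 5.90, 2.17, 8.76 and 5.44 CPM, and the VSG libraries 2.43, 5.29 and 7.37 CPM as lowest, median and highest. In the colon they held 0.852, 1.47, 0.703, 0.768 and 0.453 CPM, 0.616, 1.30, 1.73, 2.42 and 0.505 CPM, and 0.218, 0.988 and 3.21 CPM. The highest colon libraries overlapped the lowest duodenum libraries, yet all 15 mice had less Ffar3 in colon than in duodenum, and 14 of 15 less in colon than in ileum. Ffar3 fell by 2.07 (SE 0.293, adjusted p = 4.0e-08 by edgeR) from duodenum to colon and by 2.04 (SE 0.296, adjusted p = 9.0e-08 by edgeR) from ileum to colon. From duodenum to ileum the difference was -0.03 (95% interval -0.55 to 0.50), with a median of 4.74 CPM in duodenum and 4.86 CPM in ileum. Without the duodenum library of mouse 27 the differences from duodenum were -2.12 in colon and -0.09 in ileum. Summed over libraries, Ffar2 had 14.3 counts for each Ffar3 count in duodenum, 13.6 in ileum and 41.1 in colon, while Ffar1 had 18.2, 22.7 and 15.9.

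Gpr119, the receptor for monoacylglycerols and oleoylethanolamide (ENSMUSG00000051209, minus strand of chromosome X, 48667979 to 48674478), had its highest mean in the ileum. Its lowest, median and highest levels were 4.62, 13.4 and 24.1 CPM in duodenum, 7.89, 16.8 and 45.5 CPM in ileum, and 2.27, 8.49 and 20.8 CPM in colon. The 3 ranges overlapped, and the ileum exceeded the duodenum in 11 of 15 mice and the colon in 13 of 15. Gpr119 fell by 0.93 (SE 0.229, adjusted p = 0.000654 by edgeR) from ileum to colon. The ileum-to-duodenum difference was 0.49 (SE 0.225, adjusted p = 0.0863 by edgeR). When each mouse was given its own term as a replicate block, it was 0.56 and passed (adjusted p = 0.0314 by edgeR). It also passed with a random block per mouse in limma voom (0.53, adjusted p = 0.0228). Libraries of the same mouse are paired by the animal, and the fit that did not call Gpr119 leaves this pairing out. The colon-to-duodenum difference of -0.44 (adjusted p = 0.0981 by edgeR) passed only when VSG mouse 18, whose colon library was the highest of its group, was left out (-0.58, adjusted p = 0.0294). Without the duodenum library of mouse 27 the differences from duodenum were 0.42 in ileum and -0.49 in colon, and neither passed in the fit without a mouse term. Both paired fits keep that library and were not run without it.

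Gpbar1, the bile acid receptor, was lowest in the duodenum, and its colon-to-duodenum difference had the opposite sign to those of Ffar1 and Ffar3. The gene (ENSMUSG00000064272) has its coding sequence in 1 exon on the plus strand of chromosome 1 at 74278550 to 74279624, 215 bases from Aamp on the other strand. The 150 bases before its GENCODE start (chr1:74278400-74278549, from RefSeq's promoter window, GRCm38.p6) are shown because it was the only member called higher in ileum than in duodenum by the fit without a mouse term. They hold none of the letters searched above.
Gpbar1: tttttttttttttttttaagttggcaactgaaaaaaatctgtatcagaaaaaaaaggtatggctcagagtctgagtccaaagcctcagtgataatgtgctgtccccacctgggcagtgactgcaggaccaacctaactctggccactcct
In the duodenum Gpbar1 had 93 counts over all 16 libraries, 0 to 22 in each, and 4 libraries had none. The sham ad libitum libraries there held 0.352, 0.714, 0.487, 0 and 2.72 CPM, the sham weight-matched libraries 2.34, 0.799, 0, 1.09 and 1.03 CPM, and the VSG libraries 0, 0.220 and 0.325 CPM as lowest, median and highest. In the ileum the sham ad libitum libraries held 4.37, 1.28, 6.46, 3.18 and 3.54 CPM, the sham weight-matched libraries 5.09, 4.63, 4.40, 15.9 and 2.22 CPM, and the VSG libraries 3.07, 3.75 and 6.70 CPM. In the colon they held 1.95, 3.55, 1.55, 2.69 and 1.81 CPM, 1.85, 2.02, 0, 8.19 and 3.03 CPM, and 0.462, 1.72 and 2.40 CPM. Every one of the 15 mice had more Gpbar1 in ileum than in duodenum, 12 had more in colon than in duodenum, and 13 had more in ileum than in colon. Gpbar1 rose by 3.00 on the log2 scale (SE 0.414, adjusted p = 8.6e-08 by edgeR) from duodenum to ileum and by 1.94 (SE 0.416, adjusted p = 8.8e-05) from duodenum to colon. Without the duodenum library of mouse 27 these were 2.90 and 1.85. With the second library index as a covariate they were 2.499 (adjusted p = 0.0876 by edgeR) and 1.19 (adjusted p = 0.430) and neither passed. Since the index largely follows region, that fit can hardly separate index from region. From ileum to colon it fell by 1.06 (SE 0.371, adjusted p = 0.0151 by edgeR). The sham weight-matched mouse 29 held the highest ileum and colon values, and without that mouse the ileum-to-duodenum difference was 2.79.

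**Figure D3:**
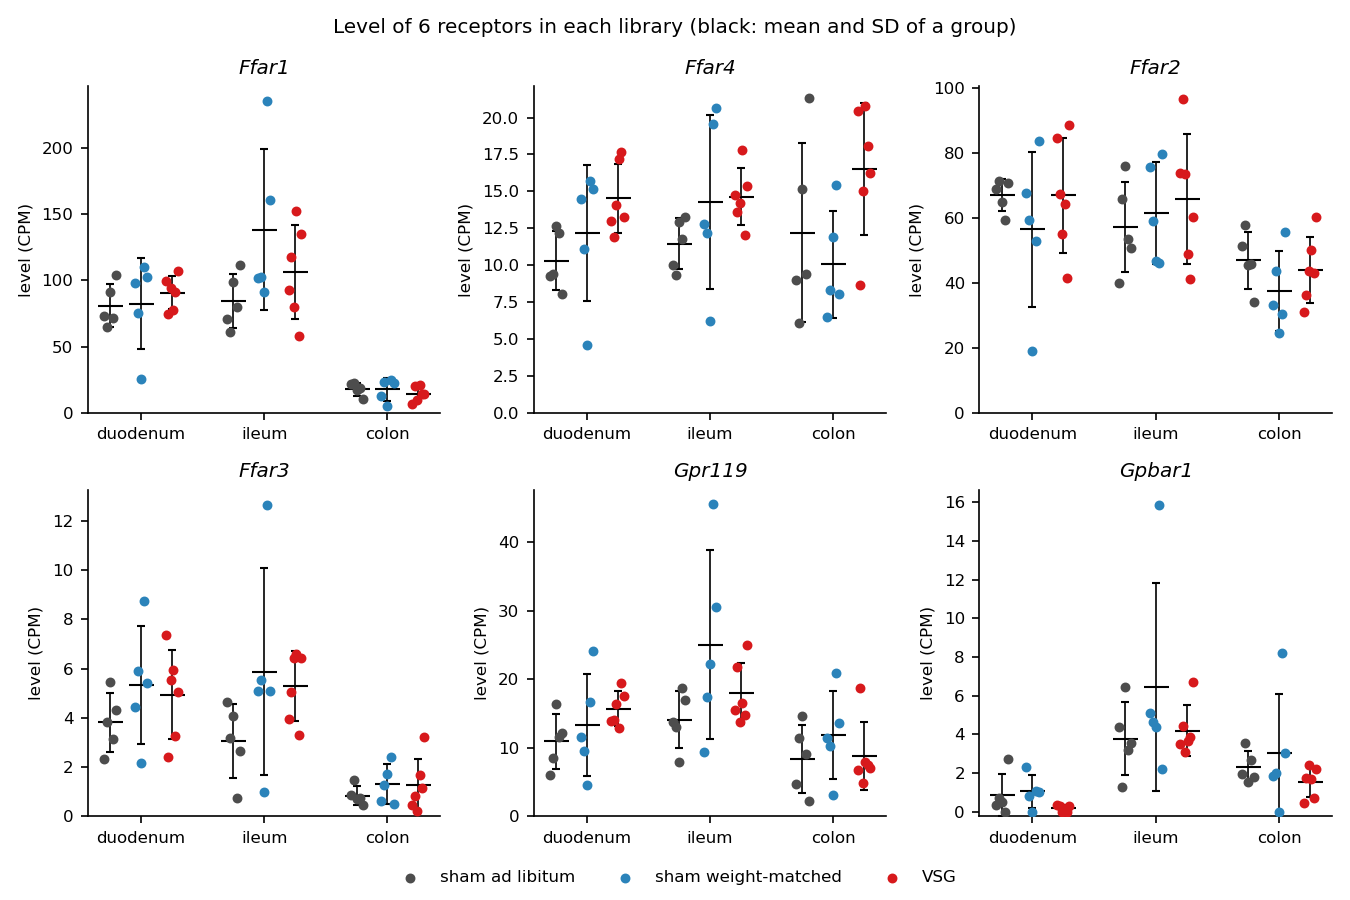
Level of each receptor in CPM (vertical axis, a scale of its own per panel) in every library, by region and surgery group. Points are libraries, black bars the mean and SD of a group of 5 or 6. The Ffar1 colon points sit between 5.18 and 25.1 CPM, the Gpbar1 duodenum points between 0 and 2.72 CPM, and the surgery groups overlap within each region for all 6 genes. The highest VSG duodenum value of Gpbar1 (0.325 CPM) lies below 8 of the 10 sham values.

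How far these regional differences go beyond those of enteroendocrine genes in general depended on the gene used as the yardstick. Relative to Chga, the mean log2 ratio of Ffar1 was 2.76 lower in colon than in duodenum, that of Ffar3 2.09 lower, and that of Ffar2 0.91 lower. Relative to Neurod1, Ffar1 was 1.06 lower and Ffar3 0.39 lower in colon, while Ffar2 was 0.78 higher and Ffar4 1.35 higher. Relative to the geometric mean of all 12 enteroendocrine markers, Ffar1 was 0.58 lower, Ffar3 0.09 higher, Ffar2 1.26 higher, Gpr119 1.24 higher and Ffar4 1.83 higher. Under all of these measures Ffar1 was lower and Gpbar1 higher in colon than in duodenum (Gpbar1 by 0.87 relative to Chga, 2.57 relative to Neurod1 and 3.04 relative to the 12 markers), whereas the direction for Ffar2, Ffar3, Ffar4 and Gpr119 turned with the yardstick. Between colon and ileum, 3 of the 5 receptors called lower were higher relative to the 12 markers, Ffar2 by 0.71, Gpr119 by 0.21 and Gpbar1 by 0.20, while Ffar1 was 1.48 lower and Ffar3 0.40 lower. Relative to Chga all 5 were lower. For the ileum against the duodenum, Gpbar1 was 2.15 to 2.91 higher relative to these yardsticks. No test was made on these ratios, and the part of the falling enteroendocrine markers in the colon values was not tested.

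**Figure D4:**
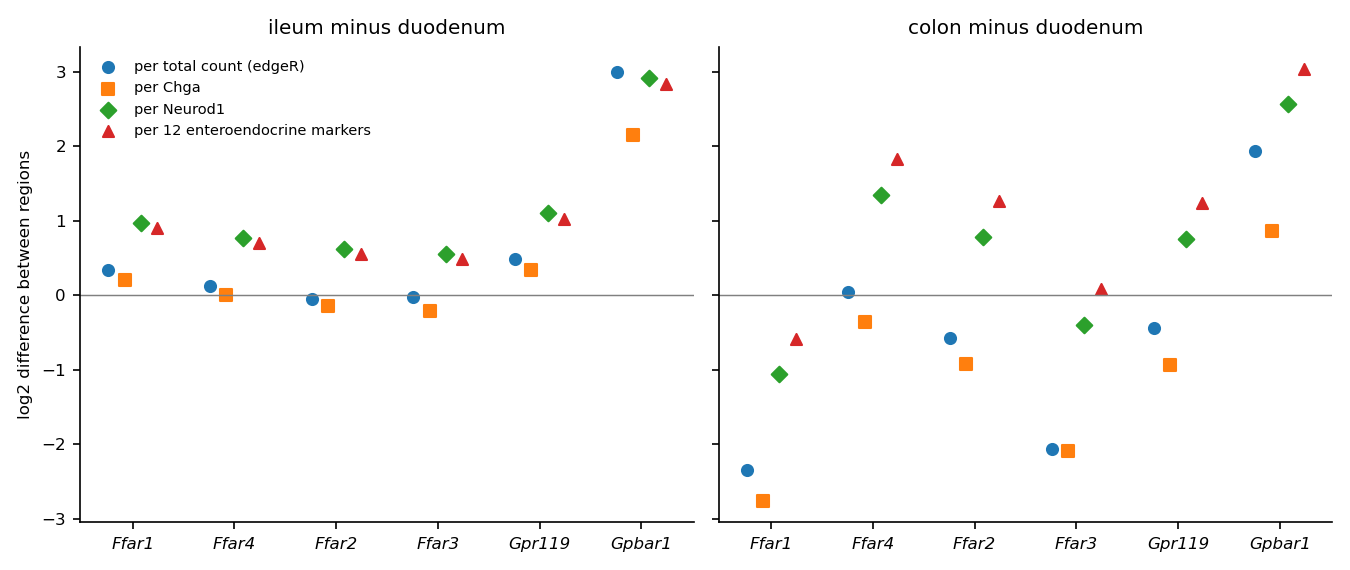
Log2 difference of each receptor between ileum and duodenum (left) and between colon and duodenum (right), as fitted per total count by edgeR and as the difference of mean log2 ratios to Chga, to Neurod1 and to 12 enteroendocrine markers (16 libraries per region). In the right panel the points of Ffar1 are all below 0 and those of Gpbar1 all above 0, while those of Ffar2, Ffar4, Gpr119 and Ffar3 lie on both sides.

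Other genes of the same pathways were counted from lists. These counts are to be read against the shares of all genes called in each direction, which were 17.2% higher and 16.6% lower between ileum and duodenum, 26.8% and 28.3% between colon and duodenum, and 23.8% and 25.4% between colon and ileum. Among 25 further receptors for lipids and metabolites, 18 were tested, of which 6 were higher and 6 lower in colon than in duodenum (median difference -0.13 on the log2 scale against -0.01 for all genes tested), and 4 were higher and 5 lower in ileum. Olfr78 and Olfr558, olfactory-type receptors that respond to short-chain fatty acids, rose from 2.45 and 1.56 CPM in duodenum to 44.1 and 39.6 CPM in colon, with log2 differences of 4.15 (SE 0.216, adjusted p = 1.4e-21 by edgeR) and 4.74 (SE 0.225, adjusted p = 5.0e-23), in the opposite direction to Ffar2 and Ffar3. The cannabinoid receptor Cnr1 fell from 95.8 to 0.456 CPM, a log2 difference of -7.87 (SE 0.364, adjusted p = 3.5e-22 by edgeR).

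Of 25 G proteins, arrestins and downstream enzymes, 23 were tested, and 6 were higher and 10 lower in colon than in duodenum, with a median of -0.24. Gna14, a Gq-family subunit, rose by 7.60 (SE 0.262, adjusted p = 1.4e-28 by edgeR) from 0.244 to 43.4 CPM, Itpr2, an inositol trisphosphate receptor, rose by 1.64 (SE 0.162, adjusted p = 6.1e-12), and Gnai1, an inhibitory subunit, fell by 1.71 (SE 0.177, adjusted p = 1.6e-11). The counts were 6 higher and 8 lower in ileum against duodenum and 8 higher and 8 lower in colon against ileum.

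Genes that take up and process long-chain fatty acids fell with Ffar1: 15 of 20 were lower and 3 higher in colon than in duodenum, with a median of -1.71, and 14 were lower and 3 higher than in ileum. Slc27a2, a fatty acid transporter, fell from 134 to 14.6 CPM (log2 difference -3.22, SE 0.118, adjusted p = 1.1e-27 by edgeR), Fabp5, a fatty acid binding protein, fell by 4.37 (SE 0.251), and Fabp1, the liver-type binding protein, had a log2 difference of -7.74 (SE 0.434). The enterocyte markers, with 8 of 9 lower in colon and a median of -4.86, moved the same way, share genes such as Fabp1 with this list, and their part in it was not tested. Short-chain fatty acid handling went the other way from Ffar2 and Ffar3, with 5 of 8 genes higher and 2 lower in colon than in duodenum and a median of 1.095. Slc5a8, a sodium-coupled transporter of short-chain fatty acids, rose from 0.910 CPM in duodenum to 72.8 in ileum and 238 in colon (log2 difference 8.13, SE 0.349, adjusted p = 4.7e-23 by edgeR for colon against duodenum), and the acetate-activating enzyme Acss2 rose by 1.88 (SE 0.109). The colonocyte markers rose in the colon too, 7 of 7, and their part was not tested.

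Of the bile acid genes, 7 of 11 were higher in ileum and 1 lower than in duodenum, with a median of 0.50 against 0.00 for all genes tested. Fabp6, the ileal bile acid binding protein, rose from 3.06 to 226 CPM (log2 difference 6.41, SE 0.496, adjusted p = 1.2e-13 by edgeR) and Slc10a2, the apical bile acid transporter, from 0.916 to 49.6 CPM (5.75, SE 0.449, adjusted p = 1.4e-13). Fgf15, the hormone that ileal cells make on bile acid uptake, rose by 7.54 (SE 0.803, adjusted p = 2.0e-09) from 0.0905 CPM in duodenum, a level of few counts. In colon against ileum 1 was higher and 6 lower, and in colon against duodenum 4 were higher and 2 lower. Abcc2, an exporter of conjugated organic anions, had the lowest p of the list, with means of 118 CPM in duodenum, 90.4 CPM in ileum and 2.36 CPM in colon (log2 difference -5.69, SE 0.327, adjusted p = 9.1e-19 by edgeR for colon against duodenum). Several of these genes are also expressed by enterocytes, whose markers had 3 of 9 higher and 2 lower in ileum than in duodenum, and the part of enterocyte RNA was not tested.

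The hormone genes themselves changed strongly by region, with 2 of 12 higher and 7 lower in colon than in duodenum, 5 higher and 6 lower in ileum than in duodenum, and 2 higher and 8 lower in colon than in ileum. Insl5, a hormone of colonic cells, had a log2 difference of 10.66 between colon and duodenum, while Cck, the gene of cholecystokinin, and Ghrl, that of ghrelin, had log2 differences of -7.38 and -9.59.

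The genes whose pattern was most like each receptor's were ranked by Pearson's r of log2 CPM over the 48 libraries, as a description. The libraries share mice, depth and regions, and no test was made. They include the duodenum library of mouse 27, which was low in enteroendocrine markers and receptors alike, and its part in these r was not tested. An r without mouse 27 was computed only among receptors and with hormone genes, and some of these are given below. For Ffar1, the closest over all libraries were Bcam (r = 0.97), the prohormone convertase Pcsk1 (r = 0.94) and the calcium sensor Scgn (r = 0.94), and within groups, after the 9 group means were removed, Etv1 (r = 0.86), Trim35 (r = 0.85) and Abcc8 (r = 0.84), a subunit of the ATP-sensitive potassium channel. For Ffar2 they were Pde11a (r = 0.85), Kcnh6 (r = 0.83) and Krt7 (r = 0.83) over all libraries, and Snap25 (r = 0.84), Tph1 (r = 0.83), the enzyme of serotonin synthesis, and Slc38a11 (r = 0.83) within groups. The 3 genes closest to Ffar3 were Gm27162, Ffar1 and Nr4a2 over all libraries (r = 0.81 for each) and Col7a1, Coil and Gnpda2 within groups, with lower r of 0.58, 0.57 and 0.54. Col7a1 had a mean of only 0.907 CPM, and its Spearman rank correlation with Ffar3 within groups was 0.42. Ffar4 had the weakest likenesses over all libraries, with Inafm2 (r = 0.55), Bace2 (r = 0.53) and Rab15 (r = 0.53), and within groups had Tspan1 (r = 0.66), Tmem63a (r = 0.64) and Bace2 (r = 0.61). Gpr119 was closest to Trim35, Nfatc2 and Pnmal1 (r = 0.77, 0.77 and 0.75) over all libraries and to Golga7b, Ffar1 and Map2 (r = 0.73, 0.71 and 0.71) within groups. Gpbar1 was closest to the hormone gene Pyy (r = 0.80), Rassf9 (r = 0.79) and Map2 (r = 0.78) over all libraries and to Ffar1, Etv1 and Zfp827 (r = 0.68, 0.68 and 0.66) within groups.

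The receptors were next set beside the hormone genes within each region, over its 16 libraries and after removal of the surgery group means. Ffar2 followed Tph1 in every region, with r of 0.88 in duodenum, 0.72 in ileum and 0.86 in colon, and over all 48 libraries r was 0.83, or 0.77 over the 45 libraries of mice other than mouse 27. In the ileum Ffar2 had r between -0.28 and 0.26 with every other hormone gene of the list. The other regions did not set Tph1 apart in this way. There the r of Ffar2 with the other hormone genes ran from -0.07 to 0.82 in duodenum. In colon it ran from 0.22 to 0.68, leaving out the 1 gene without counts. The r of Ffar1 with Gcg, the gene of GLP-1, was 0.62 in duodenum, 0.47 in ileum and 0.89 in colon, and with Pyy 0.63, 0.78 and 0.80. Its highest r with a hormone gene was 0.83 with Cck in duodenum and 0.87 with Nts, the gene of neurotensin, in ileum. With the genes other than Gcg it ran from -0.03 to 0.83 in duodenum and from -0.30 to 0.87 in ileum. Gcg was thus not set apart for Ffar1 in either region. In the colon Gpbar1 followed Gcg with r of 0.89 and Gpr119 did so with r of 0.74, whereas Ffar4 had r of -0.23 with Gcg and -0.63 with Tph1. The r with the other hormone genes that had counts there ran from -0.04 to 0.77 for Gpbar1 and -0.06 to 0.65 for Gpr119. For Ffar1 it ran from 0.23 to 0.80. Over the 48 libraries Gpbar1 and Gcg had r of 0.55, or 0.35 without mouse 27. The geometric mean of the enteroendocrine markers ran from 107 to 275 CPM in colon, and its part in these r was not tested. Among the receptors, Ffar1 and Gpr119 had the highest r over the 48 libraries (0.71, or 0.61 without mouse 27), followed by Ffar1 and Gpbar1 (0.68, or 0.51 without mouse 27), and Ffar4 had r of 0.08 with Gpr119 and 0.06 with Gpbar1. In the duodenum, where the library of mouse 27 was low for all receptors, that library is among the 16 behind each value.

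**Figure D5:**
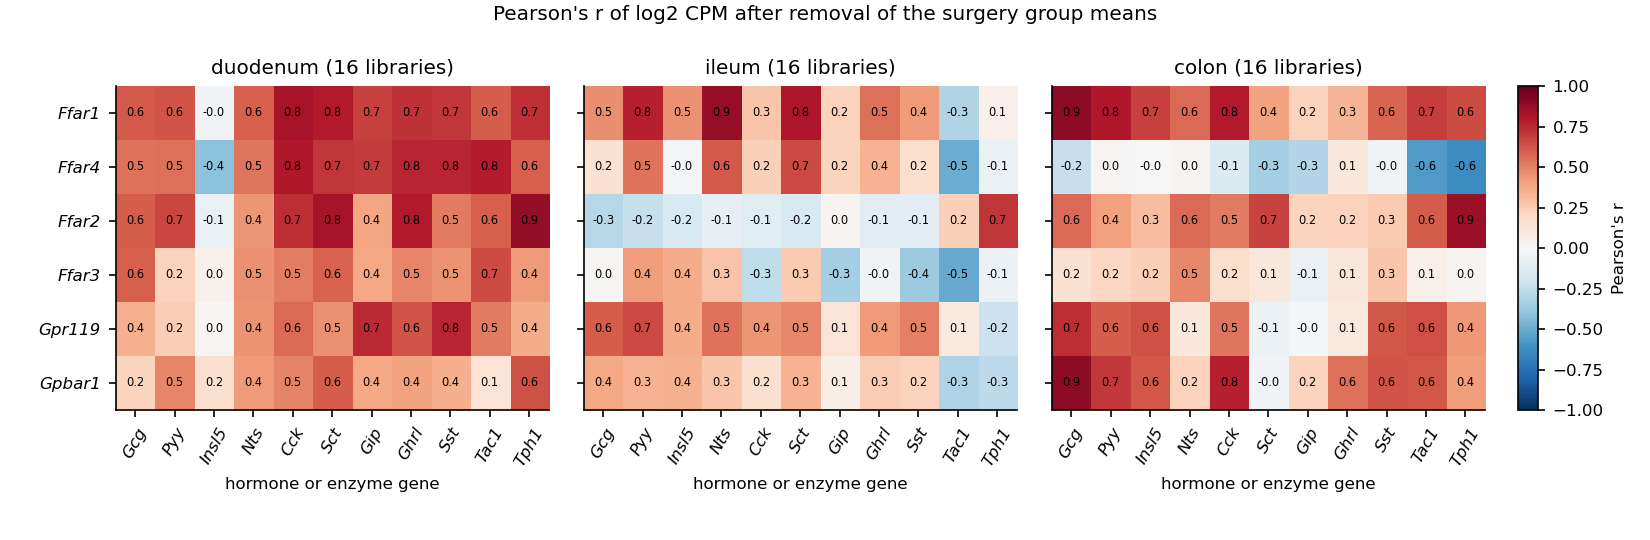
Pearson's r of log2 CPM between each receptor (rows) and 11 hormone or enzyme genes (columns) within each region, over 16 libraries after removal of the surgery group means. Red is positive and blue negative. Ffar2 with Tph1 is 0.88, 0.72 and 0.86 from left to right, Ffar1 and Gpbar1 with Gcg are both 0.89 in colon, and the Ffar4 row of the colon panel runs from -0.63 to 0.10.

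The surgery comparisons asked whether these receptors were altered after VSG, against freely fed sham mice and against sham mice of the same weight. Averaged over the 3 regions, edgeR called 0 of 6 receptors between VSG and sham ad libitum, where 0% of all genes were called and 837 had an unadjusted p under 0.05. It called 0 of 6 between VSG and sham weight-matched, where 0.245% of genes were called and 1500 had an unadjusted p under 0.05, and 0 of 6 between the 2 sham groups, where 0.0529% were called and 967 were under that p. DESeq2 called none in any of the 3 (it gave no adjusted p for Gpbar1 between VSG and sham ad libitum), and in each comparison 2 of 6 receptors had an unadjusted p under 0.05. These comparisons share groups, so they are not independent. The edgeR fit has no mouse term, so the libraries of a mouse count as separate replicates, and the SE and p given can be too small.

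The lowest p among the receptors was that of Gpbar1 between VSG and sham weight-matched mice. Its log2 difference was -1.31 (SE 0.396, 95% interval -2.11 to -0.51), with an adjusted p of 0.179 by edgeR over all genes. The result turned on single mice of the sham weight-matched group: without mouse 27 it was -1.56 (adjusted p = 0.0364 by edgeR), and without mouse 29 it was -0.84 (adjusted p = 0.457). Leaving out only the duodenum library of mouse 27 gave -1.42 (adjusted p = 0.106). Against sham ad libitum mice the difference was -0.83 (adjusted p = 0.887 by edgeR), and -0.53 without sham ad libitum mouse 32. By region, the difference was farthest from 0 in the duodenum, where the 6 VSG libraries held 10 counts in all, but a difference between regions was not called by edgeR. There it was -2.38 (SE 0.797, adjusted p = 0.195 by edgeR) against sham weight-matched mice, where 0.225% of all genes were called, and -2.07 (SE 0.798, adjusted p = 1 by edgeR) against sham ad libitum mice, where 0% were. Without mouse 32, which held the highest Gpbar1 of the duodenum, the last of these was -1.09. Without the duodenum library of mouse 27 they were -2.69 and -2.07. All VSG duodenum libraries carried the same second library index, while some sham duodenum libraries, those of mice 32 and 27 among them, carried another. Surgery and index therefore cannot be fully told apart in the duodenum comparisons with VSG, for any of the receptors. The VSG duodenum values of 0 to 0.325 CPM overlapped the sham ad libitum range of 0 to 2.72 CPM and the sham weight-matched range of 0 to 2.34 CPM. In the ileum the difference from sham weight-matched mice was -0.62 (95% interval -1.84 to 0.60), and in the colon -0.94 (95% interval -2.24 to 0.36).

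Ffar4 was the receptor with the next lowest p after VSG. Its log2 difference was 0.43 (SE 0.158, 95% interval 0.11 to 0.75, adjusted p = 0.692 by edgeR) from sham ad libitum and 0.33 (SE 0.157, adjusted p = 0.469) from sham weight-matched mice, or 0.22 without mouse 27. In the colon the VSG libraries held 8.64, 17.1 and 20.8 CPM as lowest, median and highest, the sham ad libitum libraries 9.01, 6.12, 15.2, 9.41 and 21.3 CPM, and the sham weight-matched libraries 6.53, 8.35, 11.9, 15.4 and 8.07 CPM. The groups overlapped, with 5 of 6 VSG libraries above the medians of both sham groups. The colon difference between VSG and sham weight-matched mice was 0.72 (SE 0.277, adjusted p = 1 by edgeR), where 0.0595% of all genes were called. In the duodenum the VSG libraries held 11.9, 13.7 and 17.7 CPM, the sham ad libitum libraries 9.26, 9.39, 12.7, 12.2 and 8.02 CPM, and the sham weight-matched libraries 14.5, 11.1, 4.62, 15.7 and 15.1 CPM. The VSG values there overlapped both sham groups.

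Between the 2 sham groups, Ffar3 (0.64, SE 0.293, adjusted p = 0.770 by edgeR) and Gpr119 (0.53, SE 0.234, adjusted p = 0.767) had unadjusted p under 0.05. Without the 3 libraries of sham weight-matched mouse 29 the differences were 0.29 and 0.29. That mouse held the highest Ffar3 of the ileum (12.6 CPM) and duodenum (8.76 CPM) and the highest Gpr119 of the ileum (45.5 CPM) and colon (20.8 CPM). In the ileum alone, Ffar1 differed by 0.72 (SE 0.319, adjusted p = 0.594 by edgeR) and Gpr119 by 0.83 (SE 0.401, adjusted p = 0.629) in sham weight-matched against freely fed sham mice, and without mouse 29 these were 0.44 and 0.50. Ffar1 and Ffar2 differed little after VSG, with 95% intervals of -0.31 to 0.42 and -0.24 to 0.32 against sham ad libitum and of -0.54 to 0.18 and -0.09 to 0.47 against sham weight-matched mice.

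Within regions, edgeR called 0 of 6 receptors in all 9 comparisons, in which 370 to 1318 genes had an unadjusted p under 0.05. In the duodenum 0% of all genes were called between the 2 sham groups. In the ileum 0% were called between VSG and sham ad libitum, 0.0463% between VSG and sham weight-matched and 0% between the 2 sham groups. In the colon the shares were 0% between VSG and sham ad libitum and 0.0132% between the 2 sham groups. DESeq2 and a fit to the libraries of each region alone also called 0 receptors. The receptors with an unadjusted p under 0.05 in these comparisons were those named above: Gpbar1 in both duodenum comparisons with VSG, Ffar4 in colon, and Ffar1 and Gpr119 in ileum. A test of whether the surgery effect differed between regions called 0 of 6 receptors and 0% of all genes, with 741 genes at an unadjusted p under 0.05, and none of the 6 receptors was among these.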

How the data were processed

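RNA of sorted Neurod1-positive cells (48 libraries) was made into libraries with a stranded total-RNA kit and sequenced as short single-end reads. Per the labels and the study's methods, the authors aligned reads to GRCm38 with STAR 2.5.1 and deposited its raw counts per gene. The strand setting of the counting is not given in the sources used here. Symbols, exon lengths and positions were taken from GENCODE M21 for 53360 of the 53465 Ensembl genes. 1 table held all libraries, and no column was left unmapped.

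The deposited counts were fitted in R 4.3.3 with edgeR 4.0.16: filterByExpr over 9 groups (15126 genes kept), TMM scaling, robust quasi-likelihood, 1 mean per region and surgery group, contrasts averaged over the other factor, Benjamini-Hochberg adjustment at 0.05, and SE from the F statistic (the size of the log2 difference over root F). The residual degrees of freedom were 39. CPM are TMM-scaled, and correlations used log2 CPM with a prior count of 2. Ratios to markers used a pseudocount of 0.5 CPM. The scripts were tested on simulated counts. DESeq2 1.42.0 and limma 3.58.1 gave alternatives. Promoter letters were searched in Python.

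The 6 genes, the gene lists and the alternatives were chosen with earlier results of these data known. The genes named are all 6 receptors, up to 3 genes of each list with the lowest p between regions, and for each receptor the 3 genes with the highest r with and without removal of group means. Chga, Neurod1 and Gcg fall outside this rule and were chosen after their values were seen.

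Libraries of 1 mouse are paired by the animal. After removal of group means, the 46 same-mouse pairs had a median correlation of 0.11 over 2000 variable genes, with 25 above 0.1, against -0.01 between mice. The study's model has no mouse term, so none was used, and fits with the mouse as a block were alternatives. The lowest chi-square per gene between 2 libraries of 1 group was 8.77, so no library was a duplicate. Within each of the 9 groups, replicates are separate mice. In the comparisons averaged over regions, each library of a mouse counts as a separate replicate, which can make the SE and p too small. Counting intervals are not given, since the spread between mice was measured directly.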

Additional observations from a re-analysis of the deposited data

Results flagged for a closer look

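Each receptor was searched in each of the 9 groups of 5 or 6 libraries for a highest or lowest value whose gap to the next, divided by the range of the group, passed Dixon's critical value. Of 54 searches 3 passed (5.56%), where chance flags about 1 in 20. VSG mouse 18 held 18.7 CPM of Gpr119 in colon, while the other 5 VSG colon libraries held 4.80 to 7.97 CPM. Sham ad libitum mouse 32 held 2.72 CPM of Gpbar1 in duodenum, while the other 4 libraries of the group held 0 to 0.714 CPM. Sham weight-matched mouse 29 held 15.9 CPM of Gpbar1 in ileum, while the other 4 held 2.22 to 5.09 CPM, and that library was also the highest ileum library for Ffar1, Ffar3 and Gpr119. Its geometric mean over the 12 enteroendocrine markers was 557 CPM, within the range of 273 to 633 CPM of all ileum libraries.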

How the results depend on the processing

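In addition to the fits above, 11 alternatives and the omission of each of 17 mice were run. The number of receptors called between ileum and duodenum was 1. It was 2 with the mouse as a random replicate block in limma voom and 2 with the mouse as a fixed block in edgeR (Gpr119 was added). It was 0 with the second library index as a covariate, which largely follows region and can hardly be separated from it. That covariate also gave 2 in place of 4 between colon and duodenum. The paired analysis changed no other call. Leaving out each mouse gave 4 to 5 between colon and duodenum and 0 to 1 between VSG and sham weight-matched. With the index covariate, the Gpbar1 differences from duodenum were 2.499 in ileum and 1.19 in colon and no longer passed, nor did Ffar2 between colon and ileum (-0.35).

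Signs turned for differences that had not passed, with 1 exception, and the cause was not tested. The exception was Ffar2 between colon and duodenum, at 0.033 with the index covariate, which also turned Ffar2 (0.38) and Ffar3 (0.40) between ileum and duodenum, Ffar4 between colon and ileum (0.018), Ffar1 (-0.082) and Ffar2 (-0.081) between VSG and sham ad libitum, and Ffar4 (-0.042) between the sham groups. The fixed block turned Ffar3 between ileum and duodenum (0.035), and the random block (-0.044) and omission of the duodenum library of mouse 27 (-0.014) turned Ffar4 between colon and duodenum. Over the mice left out in turn, Ffar3 ranged from -0.14 to 0.055 between ileum and duodenum and Ffar4 from -0.080 to 0.10 between colon and duodenum. Ffar1 ranged from -0.018 to 0.11 and Ffar2 from -0.028 to 0.11 between VSG and sham ad libitum, Ffar1 from -0.38 to 0.0045, Ffar3 from -0.33 to 0.23 and Gpr119 from -0.38 to 0.021 between VSG and sham weight-matched, and Ffar4 from -0.050 to 0.21 between the sham groups. Omission of mouse 29 turned the last 4 of these. The other 1032 log2 fold changes kept their direction and their side of the threshold. The other 408 counts were the same or close, with 5 in place of 4 between colon and duodenum without mouse 18 taken as close. Adjusted p for Gpbar1 between VSG and sham weight-matched ran from 0.0364 to 0.953. For Gpbar1 in duodenum the fit to that region alone gave no value, and DESeq2 gave no adjusted p against sham weight-matched. Depth limits Gpbar1, with as few as 0 counts in a duodenum or colon library, and Ffar3 in colon, with as few as 2.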
